A study of Arabidopsis thaliana with 18 samples.

Results

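Suppressor *dcl1-24/hyl1-2* seedlings were compared with *hyl1-2* seedlings at 21 °C, over all 161 entries of a miRNA abundance table. The comparison used 6 of the 18 small RNA libraries of the series, 3 per genotype. It addresses whether a change in DCL1 raises miRNA levels when HYL1 is missing. *hyl1-2* is a loss-of-function allele of *HYL1* in the Col-0 background. *dcl1-24/hyl1-2* carries the same *hyl1-2* allele and, in addition, the *dcl1-24* mutation, a dominant substitution of proline by serine in the RNaseIIIa domain of DCL1 recovered in a mutagenesis screen of *hyl1-2* for seedlings taller at 27 °C. Both genotypes therefore carry *hyl1-2*. Whether the suppressor line holds further mutations from the mutagenesis was not tested here. After 5 days in the cold and dark, seeds were grown in red light at 21 °C, and whole seedlings, 4 days old, were collected 96 h after the end of the cold treatment. The paper calls the libraries of a group independent biological replicates, and the p-values measure the spread between libraries within groups. The limma fits, on a log scale, shared this spread over all 18 libraries, with Col-0 moved to 27 °C among them. The 3 libraries of wild-type Col-0 at 21 °C are given for reference. The 6 libraries of both mutants moved to 27 °C after 48 h were used for a repeat of the same contrast.

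In plants, a miRNA is cut from the stem of a hairpin precursor by the RNase III enzyme DCL1, which releases a duplex of a 5p and a 3p strand. HYL1 is a double-stranded RNA-binding partner of DCL1 that supports efficient and precise cutting. One strand of the duplex, the guide, is loaded into AGO1 and represses mRNAs with a matching site, while the other strand is mostly lost. A few hairpins with long, nearly perfect stems are cut by another Dicer, DCL4. Levels are given as RPMR, in which each library's miRNA reads are divided by its 45S rRNA reads and scaled as RPM, so that a value depends on both kinds of reads.

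The mature strands on which the results turn were taken from the RefSeq annotation of TAIR10.1, 5′ to 3′, with the seed (bases 2 to 8) in capitals. All 203 miRNA names behind the 161 entries matched an annotated mature strand, and 29 entries cover several names of identical sequence. The first set rose most or dominated the pool.
miR5650: uUGUUUUGgaucuuagauaca
miR5996: uGACAUCCagauagaagcuuug
miR319c: uUGGACUGaagggagcuccuu
miR837-3p: aAACGAACaaaaaacugaugg
miR162a-3p: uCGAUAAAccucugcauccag
miR5026: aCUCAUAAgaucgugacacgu
miR158a-3p: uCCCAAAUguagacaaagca
miR159a: uUUGGAUUgaagggagcucua
miR159b-3p: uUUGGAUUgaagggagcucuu
miR156a-5p: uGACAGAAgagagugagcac
The second set holds the 3 strands that fell, and the partner of one of them.
miR822-5p: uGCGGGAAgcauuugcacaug
miR822-3p: uGUGCAAAugcuuucuacagg
miR840-5p: aCACUGAAggaccuaaacuaac
miR840-3p: uUGUUUAGgucccuuaguuuc
The third set is a strand pair whose 5p to 3p ratio changed.
miR398b-5p: aGGGUUGAuaugagaacacac
miR398b-3p: uGUGUUCUcaggucaccccug
Among these, miR159a and miR159b-3p share a seed. The hairpins of the entry with the largest rise and of the most abundant entry come from the same annotation, with the measured strand in capitals. MIR5650 lies at chr2:19686957-19687039 on the plus strand and overlaps the gene EDA4. MIR5026 lies at chr4:7844496-7844688 on the plus strand within AT4G13495, a non-coding RNA gene that also holds MIR863.
MIR5650: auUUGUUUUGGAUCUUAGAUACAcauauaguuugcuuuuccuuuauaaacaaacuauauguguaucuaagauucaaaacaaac
MIR5026: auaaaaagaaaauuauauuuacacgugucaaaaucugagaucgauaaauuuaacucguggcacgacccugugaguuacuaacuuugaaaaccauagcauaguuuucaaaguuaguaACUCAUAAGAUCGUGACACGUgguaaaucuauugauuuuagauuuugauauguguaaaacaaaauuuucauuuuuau

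The libraries differed in depth and in their totals. In each library every value equals a whole number of steps of its lowest non-zero value, which implies 1797623 to 2938392 reads of 45S rRNA in *hyl1-2* and 1115776 to 2395070 in *dcl1-24/hyl1-2*. The implied miRNA reads were 11040 to 13765 in *hyl1-2* and 61810 to 119743 in *dcl1-24/hyl1-2*, so that low entries of *hyl1-2* rest on very few reads. *dcl1-24/hyl1-2* replicate 3 stood apart. It had the fewest 45S rRNA reads and the highest value of the 3 suppressor libraries for 110 of the 139 entries tested. *hyl1-2* replicate 3 had the lowest value of its group, ties included, for 103 of the 139. Many results that rest on either library are given with and without it. The counts by list, the counts under other scalings and the comparisons with Col-0 are given with all libraries only.

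In the suppressor, most miRNAs stood above their *hyl1-2* level. Summed over all entries, the level was 6116, 7657 and 3757 RPMR in the 3 *hyl1-2* libraries and 40339, 29167 and 107318 RPMR in the 3 *dcl1-24/hyl1-2* libraries. The groups did not overlap, and the ratio of the means was 10.1 (exact permutation test on the log2 sums, two-sided p = 0.1, the smallest p that 3 libraries against 3 allow). Without *dcl1-24/hyl1-2* replicate 3 this ratio was 5.95, and without miR5026 in the sums it was 6.99. The mean of log10(RPMR + 1) over the 161 entries was 0.541 ± 0.089 in *hyl1-2* and 1.11 ± 0.15 in *dcl1-24/hyl1-2* (SD, n = 3 libraries each). The difference of 0.566 had the same smallest p of 0.1 in the exact permutation test. In Col-0 this mean was 1.07 ± 0.087 and the summed level 41657 ± 9960 RPMR (SD, n = 3 libraries).

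**Figure D1:**
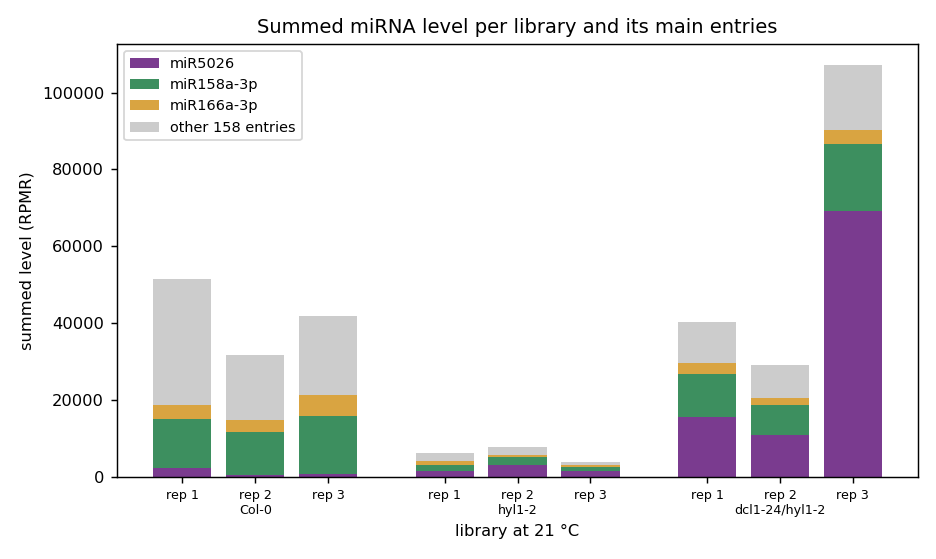
Stacked bars give the summed level of all 161 miRNA entries in each library at 21 °C in RPMR, split into miR5026, miR158a-3p, miR166a-3p and all other entries. The 3 *hyl1-2* bars (3757 to 7657 RPMR) are lower than the 3 *dcl1-24/hyl1-2* bars (29167 to 107318 RPMR), and miR5026 fills most of the bar of *dcl1-24/hyl1-2* replicate 3.

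Of the 161 entries, 139 reached 1 RPMR on average across all 18 libraries and were tested with limma on log2(RPMR + 1). Relative to 45S rRNA reads, 111 entries rose in the suppressor at a Benjamini-Hochberg adjusted p under 0.05 (79.9% of those tested) and 3 were lower (2.16%). The median log2 fold change was 2.09. The 3 suppressor libraries lay above the 3 *hyl1-2* libraries for 98 entries (70.5%) and below them for 3 (2.16%). The count of 111 was 89 without *dcl1-24/hyl1-2* replicate 3 and 87 without *hyl1-2* replicate 3. The count of 3 was 1 without *hyl1-2* replicate 2 or *dcl1-24/hyl1-2* replicate 2, and 2 without replicate 1 of either genotype. Of the 22 entries below 1 RPMR on average, 18 had a higher mean in *dcl1-24/hyl1-2*.

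**Figure D2:**
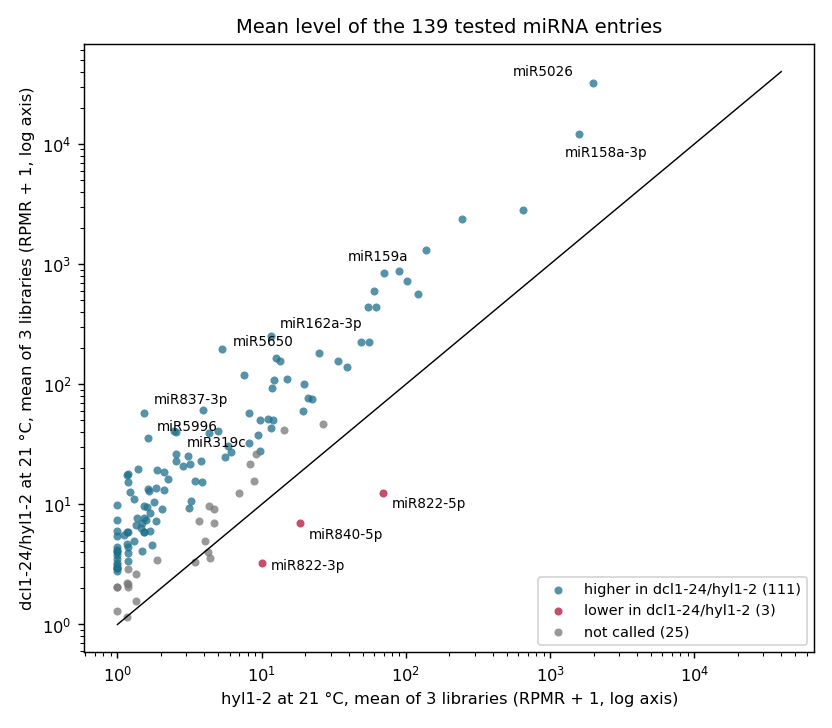
Each point is 1 of the 139 tested entries, with its mean level over 3 libraries at 21 °C in *hyl1-2* on the x axis and in *dcl1-24/hyl1-2* on the y axis (RPMR + 1, both axes logarithmic) and a line of equal levels. The 111 entries called higher lie above the line, and the 3 called lower (miR822-5p, miR822-3p and miR840-5p) lie below it.

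How many of these differences exceed the common rise depends on the scaling. Median-of-ratios scaling took its factors from the 69 miRNA entries above 0 in all 18 libraries. It lowered the median log2 fold change from 2.09 to 0.71. Scaling to the summed miRNA RPMR lowered this median to 0.17, or to 0.47 with miR5026 left out of the sum. With median-of-ratios scaling 40 entries were higher (28.8%) and 10 lower (7.19%). With the summed scaling 21 were higher (15.1%) and 23 lower (16.5%), and without miR5026 in the sum 23 were higher (16.5%) and 13 lower (9.35%). Under all 4 scalings together, 21 entries were called higher (15.1%) and 3 lower (2.16%). Of these 21, 10 were listed at 0 in every *hyl1-2* library, and a value of 0 cannot be moved by scaling. The other 11 had at least 1 read in *hyl1-2*. In what follows a fold change is relative to 45S rRNA reads unless a scaling is named.

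The largest rise was that of miR5650. Its level was 3.53, 5.56 and 3.74 RPMR in *hyl1-2* and 135.7, 97.2 and 349.5 RPMR in *dcl1-24/hyl1-2*. Every suppressor library was above every *hyl1-2* library, and also above the 4.73 to 19.8 RPMR of Col-0. The log2 fold change was 5.01 (standard error 0.74, limma adjusted p = 6.2e-08), and it stayed called at 2.09 to 2.75 under the 3 other scalings. miR5996, whose hairpin overlaps an exon of UNE15 on the same strand, had 1.51, 0 and 0.34 RPMR in *hyl1-2* and 44.3, 14.2 and 45.7 RPMR in *dcl1-24/hyl1-2*. These suppressor levels were again above Col-0, where it reached 10.9 RPMR at most. Its log2 fold change was 4.41 (standard error 0.72, limma adjusted p = 7.4e-07).

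miR319c, a member of the family that represses TCP transcription factor genes of leaf growth, had 3.53, 1.11 and 0 RPMR in *hyl1-2* and 50.5, 32.6 and 33.2 RPMR in *dcl1-24/hyl1-2*. The suppressor libraries agreed closely and lay far above *hyl1-2*, yet below the 163 to 277 RPMR of Col-0. The log2 fold change was 4.20 against *hyl1-2* (standard error 0.74, limma adjusted p = 2.4e-06) and -2.41 against Col-0 (limma adjusted p = 0.010). miR837-3p had 0.504, 1.11 and 0 RPMR in *hyl1-2* and 7.52, 7.55 and 156 RPMR in *dcl1-24/hyl1-2*. A single suppressor library thus held most of its reads, although the groups did not overlap (log2 fold change 3.94, standard error 0.72, limma adjusted p = 3.5e-06). Without *dcl1-24/hyl1-2* replicate 3 the log2 fold change was 2.54, and without replicate 1 or 2 of that genotype it was 4.64 (limma adjusted p at most 0.0021). Its partner miR837-5p overlapped between the groups, and its call (limma adjusted p = 0.0048) was lost without *dcl1-24/hyl1-2* replicate 3 (limma adjusted p = 0.11).

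miR162a-3p, the guide that represses *DCL1*, had 9.58, 13.9 and 8.17 RPMR in *hyl1-2* and 80.6, 88.7 and 589.7 RPMR in *dcl1-24/hyl1-2*. All 3 suppressor libraries were above *hyl1-2*, while replicate 1 and replicate 2 were far below the 551 to 1499 RPMR of Col-0. The log2 fold change was 3.85 (standard error 0.75, limma adjusted p = 8.9e-06), and against Col-0 it was -2.48 (limma adjusted p = 0.0087). Without *dcl1-24/hyl1-2* replicate 3 the log2 fold change against *hyl1-2* was 2.92 (limma adjusted p = 0.0021). Its partner miR162a-5p was listed at 0 in all *hyl1-2* libraries and had 0.835, 0.472 and 1.79 RPMR in *dcl1-24/hyl1-2*, which did not pass the test (limma adjusted p = 0.086). miR838, cut from an intron of *DCL1* itself, was also listed at 0 in all *hyl1-2* libraries. It had 0.418, 0.944 and 4.48 RPMR in *dcl1-24/hyl1-2*, and its call (limma adjusted p = 0.021) was lost without *dcl1-24/hyl1-2* replicate 3 (limma adjusted p = 0.22) or without *hyl1-2* replicate 3 (0.056 by the same test).

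The rest of the 10 largest rises whose libraries did not overlap were low in *hyl1-2*. miR781a, 1 sequence shared by the overlapping hairpins MIR781a and MIR781b, was at 0 to 0.556 RPMR in *hyl1-2* and at 10.9 to 26.9 RPMR in *dcl1-24/hyl1-2*. miR852 was at 0 to 0.504 and 9.19 to 26.9 RPMR in the same order. miR447a.2-3p, miR3932b-5p and miR165a-5p, the partner of a strand that represses HD-ZIP III genes, had log2 fold changes of 3.90, 3.75 and 3.71. All 3 lost the call under at least 1 of the other scalings, and none changed direction. Without *dcl1-24/hyl1-2* replicate 3, miR3932b-5p had 3.15 and miR165a-5p 3.06, and without *dcl1-24/hyl1-2* replicate 2 miR165a-5p had 4.44, all still called.

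Some low entries that were called higher under all 4 scalings were picked out after their values were seen. miR447a-3p was at 0 to 0.681 RPMR in *hyl1-2* and 6.13 to 29.6 RPMR in *dcl1-24/hyl1-2*, and its log2 fold change of 3.61 was 4.22 without *dcl1-24/hyl1-2* replicate 2. Both strands of MIR3440b were at 0 to 0.556 RPMR in *hyl1-2*, while in *dcl1-24/hyl1-2* miR3440b-3p was at 11.3 to 19.7 RPMR and miR3440b-5p at 3.34 to 6.27 RPMR. miR4228-3p was at 0 to 0.681 and 8.77 to 16.1 RPMR, and miR862-3p at 0 to 0.504 and 2.09 to 9.86 RPMR. In Col-0 the last 4 of these strands were at most at 1.98 RPMR, below every suppressor library, whereas miR447a-3p reached 56.4 RPMR there.

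**Figure D3:**
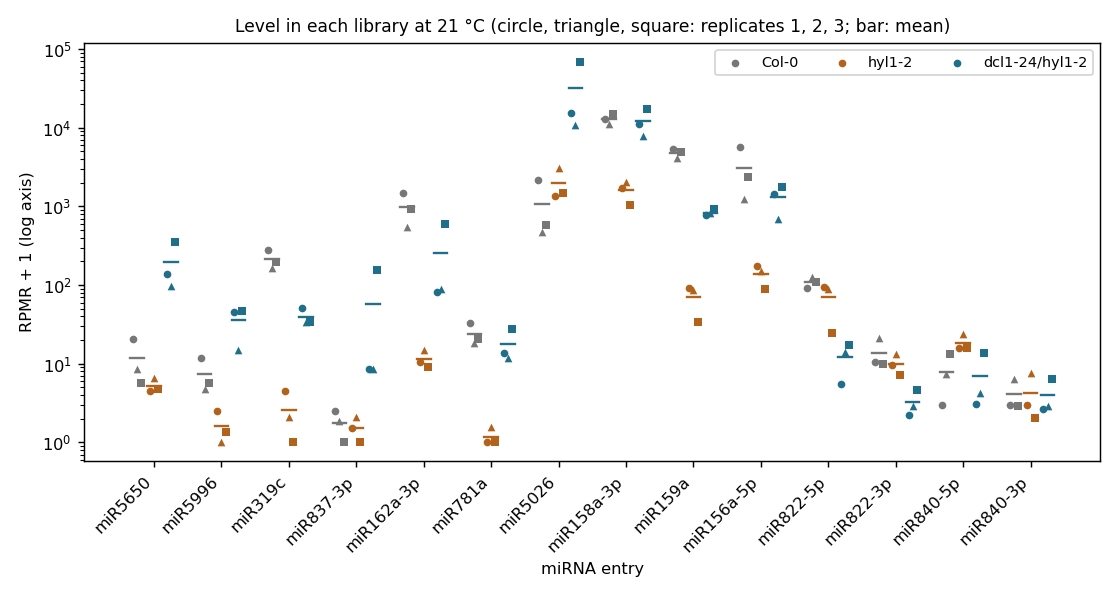
Points give the level of 14 entries in each library at 21 °C (RPMR + 1, logarithmic axis), coloured by genotype with 1 marker per replicate number, and bars give the group means. For the first 10 entries the *dcl1-24/hyl1-2* points lie above the *hyl1-2* points, for miR822-5p, miR822-3p and miR840-5p they lie below, and for miR840-3p they overlap.

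The abundant entries rose too, and the pool was held by a few of them. miR5026 had 1372, 3070 and 1467 RPMR in *hyl1-2* and 15608, 10845 and 69148 RPMR in *dcl1-24/hyl1-2*. It was the most abundant entry on average over these 6 libraries, and its suppressor levels were all above the 470.4 to 2196 RPMR of Col-0. The log2 fold change was 3.63 against *hyl1-2* (standard error 0.62, limma adjusted p = 1.7e-06) and 4.76 against Col-0 (limma adjusted p = 8.4e-10). The change against *hyl1-2* was 2.83 without *dcl1-24/hyl1-2* replicate 3 (limma adjusted p = 0.00098). miR863-5p, from a hairpin in the same non-coding gene, was at 0 to 1.01 RPMR in *hyl1-2*, 4.25 to 8.77 RPMR in *dcl1-24/hyl1-2* and 0 to 2.36 RPMR in Col-0 (log2 fold change 2.36 against *hyl1-2*, limma adjusted p = 0.00072).

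miR158a-3p had 1711, 2050 and 1027 RPMR in *hyl1-2* and 11189, 7866 and 17446 RPMR in *dcl1-24/hyl1-2*. Its suppressor mean was 93.2% of the Col-0 mean, and its rise in log2 was 2.91 (standard error 0.58, limma adjusted p = 1.4e-05), which turned to -0.25 with libraries scaled to summed miRNA RPMR. miR159a, which represses GAMYB-like genes, had 89.8, 85.1 and 32.7 RPMR in *hyl1-2* and 769.9, 817 and 919 RPMR in *dcl1-24/hyl1-2*. The suppressor level was high against *hyl1-2* and low against Col-0, at 17.3% of the Col-0 mean. The log2 fold changes were 3.70 (standard error 0.67, limma adjusted p = 3.5e-06) and -2.52 (limma adjusted p = 0.0028). miR159b-3p, which shares the seed of miR159a, rose by 3.37 (standard error 0.64, limma adjusted p = 7.1e-06), and its suppressor mean was 47.7% of that of Col-0.

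As shares of the summed RPMR, the 10 entries of highest mean level took 83.5% to 89.4% of the *hyl1-2* pool and 88.0% to 93.1% of the suppressor pool. miR5026 took 33.9% ± 9.91 in *hyl1-2*, 46.8% ± 15.3 in *dcl1-24/hyl1-2* and 2.37% ± 1.64 in Col-0 (SD, n = 3 libraries each). In *dcl1-24/hyl1-2* replicate 3 alone it took 64.4%, against 38.7% and 37.2% in the other suppressor libraries. The share of miR158a-3p was 27.4% ± 0.60 in *hyl1-2* and 23.7% ± 6.42 in *dcl1-24/hyl1-2*, and that of miR166a-3p 11.5% ± 5.12 and 5.64% ± 1.90. The shares of both genotypes overlapped for each of the 10 entries (exact permutation test, two-sided, p = 0.2 to 0.8, adjusted over the 10 at least 0.75), in a design whose smallest p is 0.1, so that no share could pass 0.05. With miR5026 left out of the total, the share of miR159a was 1.72% in *hyl1-2* and 3.33% in *dcl1-24/hyl1-2*, and that of miR159b-3p 6.13% and 9.11%. These groups did not overlap (exact permutation test, unadjusted p = 0.1 for both), unlike those of the other 7 entries.

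The 3 entries that fell came from 2 hairpins. miR822-5p had 92.8, 89.0 and 23.8 RPMR in *hyl1-2* and 4.59, 13.2 and 16.1 RPMR in *dcl1-24/hyl1-2*. No library overlapped between the groups, and the suppressor was also below the 92.1 to 126 RPMR of Col-0. The log2 fold change was -2.42 (standard error 0.75, limma adjusted p = 0.0029), and this call held without each of the 6 libraries in turn, with -3.05 without *hyl1-2* replicate 3. miR822-3p, from the other arm of the same hairpin, had 8.57, 12.2 and 6.13 RPMR in *hyl1-2* and 1.25, 1.89 and 3.58 RPMR in *dcl1-24/hyl1-2*. Its groups did not overlap either (log2 fold change -1.64, standard error 0.70, limma adjusted p = 0.029), but the call was lost without replicate 1 or 2 of either genotype (limma adjusted p = 0.054 to 0.098). MIR822 is cut by DCL4 from a long stem. Its hairpin of 337 nt lies at chr5:897020-897356 on the minus strand. Its 2 strands were the only tested members of the list of DCL4 products and long hairpins, which does not hold every long hairpin. Of 31 tested entries from hairpins of 200 nt or more, 20 were higher and 3 lower.

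miR840-5p had 14.6, 22.8 and 14.6 RPMR in *hyl1-2* and 2.09, 3.30 and 12.5 RPMR in *dcl1-24/hyl1-2*. In Col-0 it was at 1.98 to 12.3 RPMR, so that *hyl1-2* was the high group and the suppressor was at 87.1% of the Col-0 mean. The log2 fold change was -1.67 (standard error 0.72, limma adjusted p = 0.029), and the call was lost without *hyl1-2* replicate 2 or *dcl1-24/hyl1-2* replicate 1 or 2 (limma adjusted p = 0.089, 0.15 and 0.087). A change of -2.30 was found without *dcl1-24/hyl1-2* replicate 3 (limma adjusted p = 0.0093). Its partner miR840-3p had 2.02, 6.68 and 1.02 RPMR in *hyl1-2* and 1.67, 1.89 and 5.38 RPMR in *dcl1-24/hyl1-2*, with overlapping groups and a log2 fold change of 0.02 (limma adjusted p = 0.98) that turned to -1.90 to -2.37 under the other scalings. MIR840 lies at chr2:771337-771562 on the minus strand and overlaps an exon of AT2G02750 on the same strand. All 3 entries that fell were called lower under all 4 scalings. The other scalings take out a common rise and so move such entries further down, and this agreement adds no separate support.

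The families were next grouped by what they repress. Since 79.9% of all tested entries were higher, with a median log2 fold change of 2.09, similar counts are no property of a list. Of 9 entries of miR156 and miR157, which repress *SPL* genes of phase change, 8 were higher and none lower (median 1.96), although the median turned to -0.40 with median-of-ratios scaling, where 1 was higher and none lower, and to -1.06 with summed scaling (none higher, 3 lower). The guide strand shared by miR156a to miR156f had 173, 149 and 87.8 RPMR in *hyl1-2* and 1435, 691 and 1767 RPMR in *dcl1-24/hyl1-2*. The groups were far apart, and the suppressor mean was 41.8% of the Col-0 mean (log2 fold change 3.19, standard error 0.67, limma adjusted p = 3.6e-05). The guide strand of miR157a to miR157c, miR157a-5p, rose from 10.8 ± 6.0 to 92.6 ± 51.4 RPMR (SD, n = 3 libraries each), beside 80.5 ± 4.6 RPMR in Col-0 (log2 fold change 2.99, limma adjusted p = 0.00033), but had -0.03 with libraries scaled to summed miRNA RPMR.

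Among 13 auxin-related entries, 10 were higher and none lower (median 1.68, or 0.18 with median-of-ratios scaling, where 3 were higher and 1 lower), and with summed scaling the median turned to -0.46 (2 higher, 2 lower). miR160a-5p, which represses *ARF10*, *ARF16* and *ARF17*, rose from 8.72 ± 5.49 to 48.9 ± 27.6 RPMR (limma adjusted p = 0.0025). miR167a-5p, which represses *ARF6* and *ARF8*, rose from 48.0 ± 31.5 to 224 ± 77 RPMR (limma adjusted p = 0.0021). Both turned to negative values with the summed scaling (-0.46 and -0.64). Without *hyl1-2* replicate 3 their log2 fold changes moved from 2.46 to 1.81 and from 2.48 to 1.70, still called (limma adjusted p = 0.041 and 0.047). miR390a-5p, which triggers trans-acting siRNAs from *TAS3*, had overlapping groups of 10.6 to 40.3 and 34.4 to 125 RPMR. Its call (limma adjusted p = 0.025) was lost without replicate 3 of either genotype or *hyl1-2* replicate 2 (limma adjusted p = 0.076 to 0.14), and its direction turned under the 3 other scalings (-0.63 to -1.29). miR393b-3p, the partner of a strand that represses *TIR1* and its relatives, had 16.6, 16.7 and 6.47 RPMR in *hyl1-2* and 24.6, 18.9 and 78.9 RPMR in *dcl1-24/hyl1-2*. These groups did not overlap, but the difference did not pass the test (log2 fold change 1.38, limma adjusted p = 0.085), and it passed without *dcl1-24/hyl1-2* replicate 2 (limma adjusted p = 0.049). Under the 3 other scalings it was called lower, with -1.0 to -1.65.

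Of 20 entries of leaf and meristem development, 18 were higher and none lower, with a median of 2.74, or 0.87 with median-of-ratios scaling, where 7 were higher and none lower, and 0.32 with summed scaling (1 higher, 3 lower). The guide strand of miR166, miR166a-3p, had 1029, 508 and 410 RPMR in *hyl1-2* and 2904, 1812 and 3780 RPMR in *dcl1-24/hyl1-2*. The rise in log2 was 2.18 (standard error 0.62, limma adjusted p = 0.0016), close to the median of all entries, and turned to -0.31 with median-of-ratios and -0.98 with summed scaling. miR165a-3p, of the same HD-ZIP III target group, rose by 3.66 (standard error 0.75, limma adjusted p = 2.3e-05), or by 4.33 without *dcl1-24/hyl1-2* replicate 2. miR319a rose from 101 ± 42 to 718 ± 128 RPMR and miR396b-5p, which represses *GRF* genes, from 121 ± 59 to 566 ± 338 RPMR (SD, n = 3 libraries), with limma adjusted p = 0.00017 and 0.0036. Both turned to negative values with the summed scaling (-0.25 and -0.93), and miR396b-5p also with median-of-ratios scaling (-0.26).

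Of 7 entries of families that target the silencing machinery, 6 were higher and none lower (median 2.36, or 0.39 with median-of-ratios scaling, turning to -0.28 with summed scaling, where none was higher and 1 lower). miR403-3p, which represses *AGO2*, rose from 88.1 ± 29.8 to 870.0 ± 883 RPMR (limma adjusted p = 0.00033), and turned to -0.28 with the summed scaling. Its suppressor libraries held 379.9, 341 and 1889 RPMR, and without *dcl1-24/hyl1-2* replicate 3 the log2 fold change was 2.07 in place of 2.86 (limma adjusted p = 0.017). miR168a-5p, which represses *AGO1*, rose from 19.9 ± 14.1 to 76.3 ± 20.1 RPMR (limma adjusted p = 0.011), a call that was lost without *hyl1-2* replicate 3 (limma adjusted p = 0.071) and a direction that turned to -0.33 with median-of-ratios and -0.99 with summed scaling. All 4 entries of miR161, miR173 and miR400, which target pentatricopeptide repeat mRNAs or start trans-acting siRNAs, were higher (median 3.07, or 1.09 with median-of-ratios scaling, where 1 was higher, or 0.49 with summed scaling, where none was). The miR390 entries were counted with the auxin-related ones instead. miR173-5p, which triggers siRNAs from *TAS1* and *TAS2*, had 0, 3.34 and 1.36 RPMR in *hyl1-2* and 15.0, 26.4 and 34.1 RPMR in *dcl1-24/hyl1-2*. Its fold change was positive under every scaling, but with the summed scalings it did not pass the test, and the suppressor mean was 18.6% of the Col-0 mean. miR161.1 rose from 58.8 ± 17.4 to 591 ± 148 RPMR (SD, n = 3 libraries, limma adjusted p = 2.4e-05). The call of miR400 (log2 fold change 1.33, limma adjusted p = 0.035) was lost without *hyl1-2* replicate 1 or 3 or *dcl1-24/hyl1-2* replicate 2 or 3 (limma adjusted p = 0.066 to 0.19), and its groups overlapped.

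Nutrient-responsive families had 8 of 12 tested entries higher and none lower (median 1.79, or 0.49 with median-of-ratios scaling, where 2 were higher and 2 lower), and with summed scaling the median turned to -0.015 (1 higher, 3 lower). miR398b-3p, which represses copper/zinc superoxide dismutase mRNAs, had 66.1, 77.9 and 15.7 RPMR in *hyl1-2* and 333, 419 and 560.1 RPMR in *dcl1-24/hyl1-2*. The rise in log2 was 3.27 (standard error 0.71, limma adjusted p = 5.9e-05), or 2.56 without *hyl1-2* replicate 3. miR408-3p, which represses mRNAs of copper proteins, had means of 8.74 ± 5.64 and 26.7 ± 9.0 RPMR. Its call (limma adjusted p = 0.035) was lost without replicate 3 of either genotype or *dcl1-24/hyl1-2* replicate 1 (limma adjusted p = 0.067 to 0.21), and its direction turned with median-of-ratios and with summed scaling (-0.61 and -1.25). Of 4 entries of miR171, which represses scarecrow-like genes, 3 were higher (median 2.00, or 0.13 with median-of-ratios and -0.17 with summed scaling, neither with a call). miR171a-5p, the partner strand, rose from 12.4 ± 3.3 to 156 ± 148 RPMR (limma adjusted p = 0.00017). Its suppressor libraries held 63.5, 77.9 and 326 RPMR, and without *dcl1-24/hyl1-2* replicate 3 the log2 fold change was 2.45 in place of 3.18 (limma adjusted p = 0.0078).

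A list of lineage-restricted families, some but not all with roles in defence or secondary metabolism, had 8 tested entries. Of these, 6 were higher and none lower (median 2.47, or 0.60 with median-of-ratios scaling, where 2 were higher and 1 lower, or 0.0086 with summed scaling, where none was higher and 1 lower). miR858a, which represses MYB genes of flavonoid synthesis, rose from 11.1 ± 2.9 to 107 ± 27 RPMR (limma adjusted p = 0.00016). miR163, which represses SAM-dependent methyltransferase genes, rose from 32.7 ± 13.6 to 155 ± 51 RPMR (limma adjusted p = 0.0043), with a direction that turned to -0.18 with median-of-ratios and -0.85 with summed scaling. miR824-5p, which represses *AGL16*, rose from 2.17 ± 0.56 to 20.5 ± 8.4 RPMR (limma adjusted p = 0.0010). These means are ± SD over 3 libraries.

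Families found in many flowering plants were set beside the others. Relative to 45S rRNA reads, of 69 conserved entries tested 56 were higher and none lower (median 2.08), and of 70 others 55 were higher and 3 lower (median 2.10). With median-of-ratios scaling 15 conserved entries were higher and 3 lower (median 0.43), and 25 others were higher and 7 lower (median 0.95). With summed scaling the conserved entries had 4 higher and 12 lower (median -0.054) and the others 17 higher and 11 lower (median 0.55). The level in *hyl1-2* differed between these groups of entries. Among those with 1 RPMR or more on average in *hyl1-2*, 40 of 46 conserved and 19 of 30 other entries were higher, with medians of 2.41 and 2.18 (0.15 and -0.25 with median-of-ratios scaling).

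**Figure D4:**
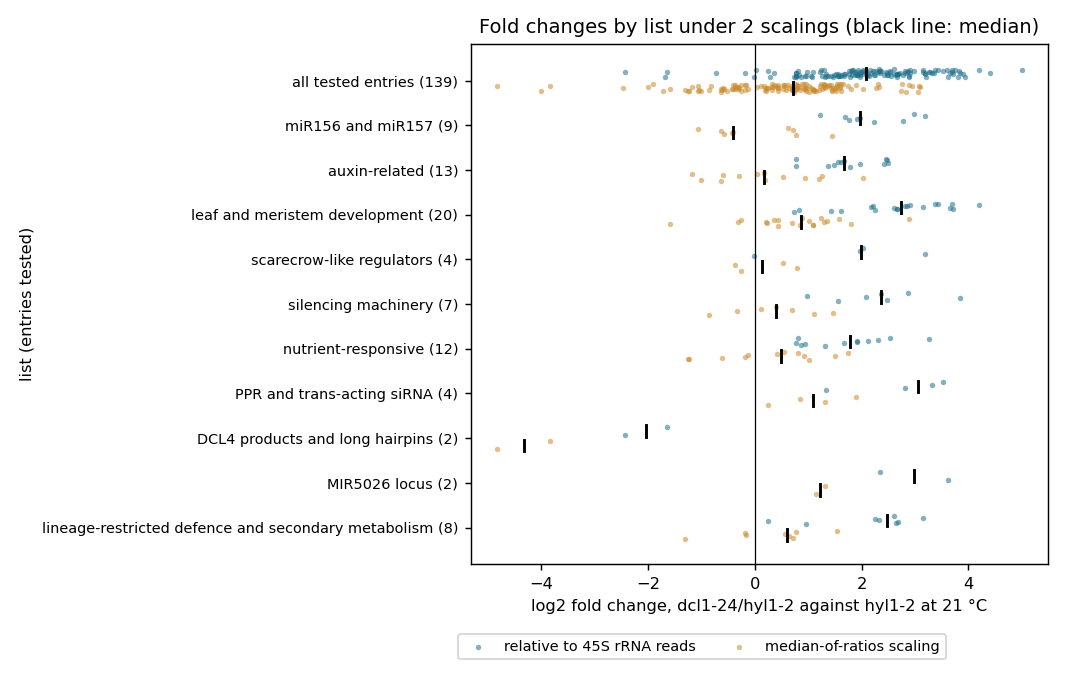
Points give the log2 fold change of each tested entry, *dcl1-24/hyl1-2* against *hyl1-2* at 21 °C, for all 139 entries and for each list, relative to 45S rRNA reads and with median-of-ratios scaling, and black lines give medians. Apart from the list with both strands of MIR822, medians relative to 45S rRNA reads lie between 1.68 and 3.07, and the scaling moves the median of all entries from 2.09 to 0.71.

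The entries were also grouped by sequence features. The share over all tested entries was 79.9% higher. Of 80 tested entries that start with U, 67 were higher (median log2 fold change 2.34). So were 16 of 18 that start with C (median 1.89), 13 of 14 with G (2.11) and 15 of 27 with A (1.46). With median-of-ratios scaling the medians for U, C, G and A were 0.79, 0.78, 0.22 and 0.33. Entries of the 5p arm had 49 of 61 higher and those of the 3p arm 62 of 78. By length, 8 of 11 entries of 20 nt, 92 of 110 of 21 nt and 8 of 13 of 22 nt were higher, with 1 of 3 of 23 nt and 2 of 2 of 24 nt. For hairpins of 200 nt or more, 20 of 31 entries were higher and 3 lower (median 1.68), against 24 of 28 for hairpins under 110 nt (median 2.19). Over the 139 entries, Spearman's rho of the fold change was -0.10 with hairpin length and 0.42 with the Col-0 level, given as descriptions across entries that share libraries and, on the log2(RPMR + 1) scale, are compressed at low levels.

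Several entries with sizeable levels did not pass the test. miR396b-3p had 50.9, 13.9 and 11.9 RPMR in *hyl1-2* and 46.8, 14.2 and 76.2 RPMR in *dcl1-24/hyl1-2*, which overlapped (log2 fold change 0.83, limma adjusted p = 0.32). Overlapping groups were also found for miR156b-3p, miR846-5p, miR472-5p, miR398b-5p and miR5654-5p, with log2 fold changes of 0.95 to 1.26 (limma adjusted p = 0.10 to 0.21). All of these turned to negative values under the 3 other scalings. miR5654-5p passed without *dcl1-24/hyl1-2* replicate 1 (limma adjusted p = 0.046).

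The ratio between the 2 strands of a duplex does not depend on how a library is scaled, except through the pseudocount. For 26 strand pairs whose strands both reached 5 RPMR on average, the log2 ratio of 5p to 3p was compared between the genotypes with limma, and 4 pairs differed at an adjusted p under 0.05 (15.4%). For MIR398b and MIR398c, whose strands are identical in sequence, the log2 ratio was -2.73, -3.36 and -2.45 in *hyl1-2*, -4.77, -5.70 and -5.03 in *dcl1-24/hyl1-2* and -5.49, -6.08 and -5.01 in Col-0. The guide miR398b-3p thus outweighed its partner least in *hyl1-2*, and the suppressor libraries did not overlap with *hyl1-2*. The difference was -2.32 (standard error 0.48, limma adjusted p = 0.0036), and it stayed called without each of the 6 libraries. In the libraries at 27 °C it was -2.59 (standard error 0.48, limma adjusted p = 0.0011). Those libraries also entered the filter that chose the pairs and the shared estimate of the spread.

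For MIR472, whose miR472-3p strand targets NLR immune receptor mRNAs, the log2 ratio was 2.44 ± 0.78 in *hyl1-2*, 0.80 ± 0.56 in *dcl1-24/hyl1-2* and 0.75 ± 0.41 in Col-0 (SD, n = 3 libraries). The difference was -1.63 (standard error 0.48, limma adjusted p = 0.030), but with a pseudocount of 5 it was -0.57 and not called (limma adjusted p = 0.24). For MIR156b and MIR156c the ratio of the shared guide strand to the partner strand was higher in the suppressor by 1.96 (standard error 0.60) and 1.42 (standard error 0.43), both with limma adjusted p = 0.030. The guide entry of these pairs sums 6 identical miRNAs, so a ratio to a single partner strand is not that of 1 hairpin, and both pairs share that entry. At 27 °C the differences of MIR472, MIR156b and MIR156c were -1.07, 1.43 and 0.14, and none passed (limma adjusted p = 0.25, 0.25 and 0.99). Leaving out single libraries gave between 1 and 4 called pairs, and the count of 4 was reached with a call outside the pairs named above. Of the named pairs, MIR398b/MIR398c alone was called without *hyl1-2* replicate 2 or 3 or *dcl1-24/hyl1-2* replicate 1 or 2. Without *hyl1-2* replicate 1 it was called with MIR472. Without *dcl1-24/hyl1-2* replicate 3 the calls of MIR156b and MIR156c stayed and that of MIR472 was lost (limma adjusted p = 0.068).

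**Figure D5:**
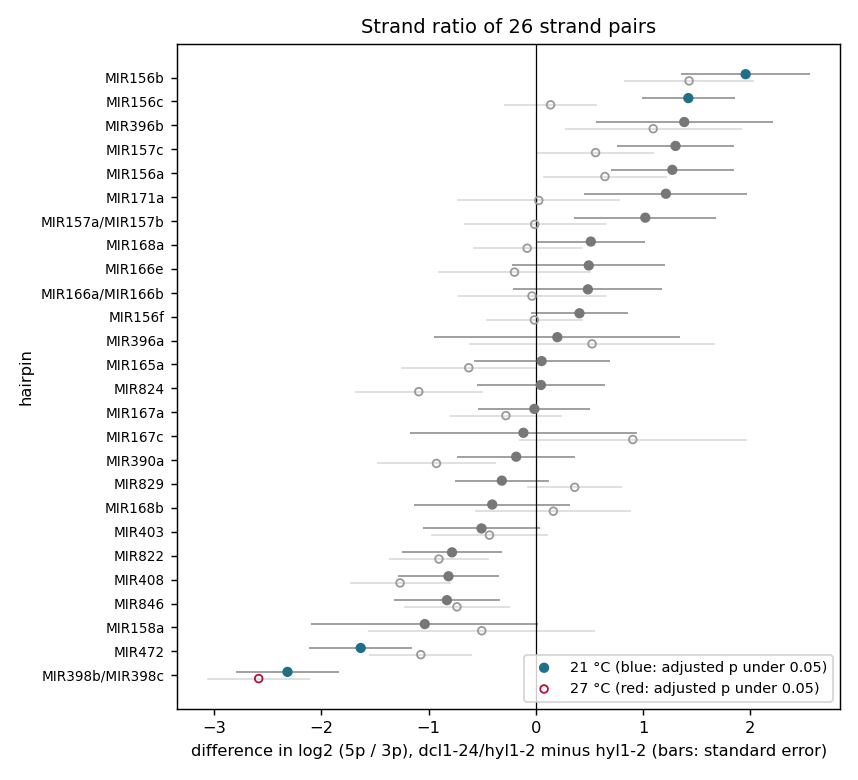
Points give the difference in log2 (5p / 3p) between *dcl1-24/hyl1-2* and *hyl1-2* for 26 strand pairs, filled at 21 °C and open at 27 °C, with bars of 1 standard error and colour for pairs at an adjusted p under 0.05. MIR398b/MIR398c lies lowest, at -2.32 and -2.59, and the 2 pairs called at positive values at 21 °C are MIR156b and MIR156c.

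Against Col-0, fitted levels of the 139 entries in *dcl1-24/hyl1-2* at 21 °C lay on both sides, and this comparison shares the suppressor libraries with the one above. The median log2 fold change was -0.07, with 19 entries called higher and 11 lower. By fitted value, 83 entries were within 2-fold of Col-0, 33 more than 2-fold above and 23 more than 2-fold below. For *hyl1-2* against Col-0 the median was -1.95, with 38 entries within 2-fold, 3 above and 98 below. The pseudocount in the fitted values draws low entries towards equal levels. An entry low in both genotypes can therefore count as within 2-fold whatever its measured ratio. How many of the entries within 2-fold in either comparison are of this kind was not tested. miR5650, miR5026, miR837-3p and miR5996 were among those called above Col-0 in the suppressor, and miR159a, miR162a-3p, miR319c and miR173-5p among those called below. These calls are given with all libraries only, and *dcl1-24/hyl1-2* replicate 3 held most of the suppressor reads of miR837-3p.

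At 27 °C the same contrast gave 66 entries higher (47.5%) and 4 lower (2.88%), with a median log2 fold change of 1.46 against 2.09 at 21 °C. The summed level was 4.39-fold higher in *dcl1-24/hyl1-2* there. miR5650 had 3.68 at 27 °C (limma adjusted p = 8.5e-05) and miR5026 2.49 (limma adjusted p = 0.0010). miR822-5p, miR822-3p and miR840-5p were lower there too, with -3.69, -2.79 and -2.89 (limma adjusted p = 8.5e-05, 0.0011 and 0.0010). The difference between the temperatures was tested as an interaction in the same fit. By limma it gave 0 entries at an adjusted p under 0.05 (0.0%), with a smallest adjusted p of 0.73 and 4 entries at an unadjusted p under 0.05. The fold change was larger at 21 °C for 114 of the 139 entries, which share their libraries.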

How the data were processed

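Small RNA libraries of 18 samples (6 groups of 3) were analysed. The authors trimmed reads with cutadapt 3.0, mapped them with ShortStack, counted them on Araport11 miRNAs and deposited RPM values relative to 45S rRNA reads (RPMR). The authors named DESeq2 1.35.0 for their own tests, which were not used here. Names identical in sequence share 1 entry. Values were taken to log2(RPMR + 1), entries averaging 1 RPMR or more across the 18 libraries were kept, and 6 group means were fitted with limma 3.58.1 (trend, two-sided, Benjamini-Hochberg) in R 4.3.3. The fit was tested on simulated data. Exact permutation tests went through every arrangement of the libraries, and Spearman's rho was computed with scipy 1.17.1. Other pseudocounts, filters, scalings and left-out libraries were tried.

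The members and lists were chosen with earlier results of these data known. A rule picked 81 entries: up to 10 per direction with the largest called, non-overlapping change, the 10 most abundant, up to 4 most abundant per list, up to 10 most abundant that were not called, partner strands, and miR156, miR157, miR160, miR167, miR390, miR393, miR162 and miR838. Not all of the 81 are described above, and the low entries picked out after their values were seen lie outside the rule. RPMR steps imply 1115776 to 2938392 rRNA reads in the 6 libraries, and depth limits entries near 1 read.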

Additional observations from a re-analysis of the deposited data

How the results depend on the processing

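Scaling changed the results most. Against 111 higher and 3 lower entries and a median log2 fold change of 2.09, scaling to summed miRNA RPMR gave 21, 23 and 0.17, the same without miR5026 in the sum gave 23, 13 and 0.47, and median-of-ratios scaling gave 40, 10 and 0.71. Which scaling is nearer to the RNA content of the seedlings was not tested. A pseudocount of 5 gave a median of 1.24. Leaving out 1 library at a time gave 87 to 112 higher and 1 to 3 lower entries, a ratio of summed RPMR of 5.95 to 12.6, and 1 to 4 strand pairs. A minimum mean of 1 RPMR on both strands gave 9 called pairs, out of a larger set of pairs than the 26 of the main setting. The strand comparison and its alternatives were chosen after seeing the data. The interaction with temperature had 0 calls under every alternative run, with 1 to 18 entries at an unadjusted p under 0.05. The replicate numbers did not pair the libraries (correlations of same-numbered deviations -0.05, 0.22 and 0.15), and the replicate block gave 110 higher and 3 lower entries. The planned edgeR and DESeq2 fits on recovered reads were not run.

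Of the 57 entries named, these changed sign relative to 45S rRNA scaling. With the summed scaling, the summed scaling without miR5026 and median-of-ratios scaling in that order, miR840-3p had -2.37, -2.15 and -1.90, miR166a-3p -0.98, -0.63 and -0.31, miR396b-5p -0.93, -0.59 and -0.26, miR390a-5p -1.29, -0.95 and -0.63, miR393b-3p -1.65, -1.32 and -1.0, miR168a-5p -0.99, -0.65 and -0.33, miR408-3p -1.25, -0.93 and -0.61, miR398b-5p -1.86, -1.56 and -1.25, miR163 -0.85, -0.51 and -0.18, miR472-5p -1.92, -1.62 and -1.31, miR396b-3p -2.24, -1.91 and -1.58, miR156b-3p -1.70, -1.38 and -1.07, miR846-5p -1.66, -1.34 and -1.04, miR5654-5p -1.64, -1.35 and -1.06, miR156c-3p -1.22, -0.89 and -0.57, and miR169f-3p -0.71, -0.41 and -0.12. With both summed scalings, miR167a-5p had -0.64 and -0.29 and miR160a-5p -0.46 and -0.14. With the summed scaling alone, miR158a-3p had -0.25, miR403-3p -0.28, miR319a -0.25, miR157a-5p -0.032 and miR400 -0.021. Of the differences in share, that of miR158a-3p turned to 2.76 percentage points, that of miR403-3p to 0.38 and that of miR319a to 0.23 with miR5026 left out of the total. Leaving out 1 library gave share differences of -0.36 to 0.24 for miR319a and -0.37 to 0.59 for miR156a-5p. That of miR319a turned without *dcl1-24/hyl1-2* replicate 3 (0.24) or *hyl1-2* replicate 1 (0.0021), and that of miR156a-5p without *dcl1-24/hyl1-2* replicate 1 (-0.37) or *hyl1-2* replicate 2 (-0.062). The cause of these changes was not tested beyond the scaling itself.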
